A study of Homo sapiens with 18 samples.

Results

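Cyclins of the cell cycle were followed through 18 RNA-seq libraries of RPE-1 cells, a human line that descends from retinal pigment epithelium and was immortalised with hTERT. The set was chosen by name from the gene count table and holds 9 of its 33121 genes: the D-type cyclins CCND1, CCND2 and CCND3, the E-type cyclins CCNE1 and CCNE2, the A-type cyclin CCNA2, the B-type cyclins CCNB1 and CCNB2, and the F-type cyclin CCNF. The other A- and B-type genes in the table, CCNA1 and CCNB3, are no part of the set and had too few counts to be tested.

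Cells in every group were transfected with an siRNA by means of Lipofectamine RNAiMax for 2 days. The siRNA was a control (siControl), one against MLX (siMlx) or one against MondoA (siMondoA), the product of the gene MLXIP. Each kind of transfected cell either received no drug (untreated) or was then exposed to doxorubicin (DXR), which damages DNA, at 150 ng/ml for 3 days. This makes 6 groups of 3 libraries. No group without transfection is among them, and all come from 1 cell line. How many siRNAs each target received, and with which sequences, is not given in the sources used here, and neither is whether the replicates were separate cultures, so a p-value speaks only of the spread among these libraries. Library names carry the tag D0 for untreated and D5 for DXR-treated cells, and a difference in harvest day and the drug cannot be told apart.

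Cyclins bind cyclin-dependent kinases (CDKs) and switch them on at set points of the cell cycle. D-type cyclins pair with CDK4 and CDK6 in response to growth signals and start the phosphorylation of the retinoblastoma protein, which frees E2F transcription factors. E-type cyclins, themselves E2F targets, pair with CDK2 at the entry into S phase. Cyclin A2 works with CDK2 in S phase and with CDK1 later, and B-type cyclins drive mitosis with CDK1. Cyclin F binds no CDK and is instead the substrate-binding part of an SCF ubiquitin ligase. After DNA damage, p53 and p21 hold CDKs inactive, and repression of S-phase and mitotic genes follows through the DREAM complex of MuvB proteins, E2F4 and the pocket proteins p107 and p130. MondoA is a transcription factor that responds to glucose and binds DNA with its partner MLX.

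The libraries held 15503423 to 29219280 counts each, and the lowest correlation between replicates was 0.99. The siRNA targets were low where their labels place them: MLXIP stood at 68.7 ± 4.64 CPM (counts relative to library size, TMM-scaled, given as mean ± SD with n = 3 libraries, here and below) with siControl and at 3.85 ± 0.646 with siMondoA in untreated cells, and MLX at 26.3 ± 0.955 with siControl and 7.002 ± 0.182 with siMlx. MLX was higher with siMondoA, at 49.2 ± 2.59 CPM. Of 10 listed markers of retinal pigment epithelium, 5 passed 1 CPM in some library, and the defining markers RPE65, RLBP1 and TYR stayed below it in all, while 5 of 7 fibroblast markers passed it. Summed, the epithelial list lay in untreated libraries between 533 and 720 CPM with siControl, 347 and 440 with siMlx, and 603 and 826 with siMondoA. In DXR-treated libraries it lay between 1151 and 1208, 964 and 1042, and 1303 and 1380.1 CPM in the same order. The sum was thus below siControl with siMlx in both conditions, and above it with siMondoA after DXR, with no overlap. It consists mostly of the keratin genes KRT8 (218 to 774 CPM over all libraries) and KRT18 (106 to 574). MITF lay between 17.5 and 35.2 CPM, and no other listed gene passed 1.74, so the sum says little of the pigment epithelium genes. The summed fibroblast markers lay between 149 and 267 CPM in untreated and between 269 and 451 CPM in DXR-treated libraries, so both lists were higher with DXR, and their part in the cyclin results was not tested. Markers of blood and endothelium summed to at most 4.32 CPM, with HBB at 0 in all libraries. In bulk RNA, fewer cells that express a cyclin and less of its RNA in each cell cannot be told apart.

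Levels of different genes were compared per length, as the RPKM values that the authors deposited. In untreated siControl cells CCND1 led with 299.8 ± 9.62 RPKM. CCNA2 followed with 55.3 ± 10.96, CCNB2 with 44.8 ± 6.45 and CCNB1 with 36.0 ± 4.84 RPKM, and the libraries of neighbours in this run overlapped. CCND3 (31.2 ± 0.0288 RPKM), CCNF (16.7 ± 3.13), CCNE2 (7.01 ± 1.56) and CCNE1 (1.96 ± 0.124) came next with no overlap between neighbours. CCND2 was last at 0.0137 ± 0.0192 RPKM. With siMondoA in untreated cells, CCND3 moved up to the second place at 27.9 ± 0.684 RPKM and CCNA2 dropped to the fifth at 13.8 ± 4.73, with overlap between neighbours from CCND3 to CCNA2. CCNE1 and CCNE2 then stood level at 1.06 ± 0.221 and 1.02 ± 0.534 RPKM. In DXR-treated siControl cells the order was CCND1 (505 ± 55.9 RPKM), CCND3 (40.2 ± 2.92), then CCNA2, CCNB1 and CCNB2 at 10.2 ± 1.69, 9.78 ± 0.943 and 8.29 ± 0.876, whose neighbours overlapped.

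CCND1 therefore made up most of the cyclin RNA in every library. The 3 D-type genes held 69.6%, 68.5% and 63.8% of the summed RPKM of the 9 cyclins in the untreated siControl libraries, and 70.8%, 67.9% and 65.5% with siMlx. They held 85.4%, 84.3% and 80.6% with siMondoA. After DXR their share was 93.5%, 93.1% and 94.3% with siControl, 96.6%, 96.7% and 97.2% with siMlx, and 97.3%, 96.4% and 97.7% with siMondoA. Every siMondoA library lay above every untreated siControl library, and every DXR library above every untreated one. The share of CCNA2, CCNB1, CCNB2 and CCNF together was 30.9% ± 2.88 in untreated siControl cells, 16.0% ± 2.47 with siMondoA and 5.66% ± 0.509 with siControl after DXR. The E-type pair held 1.81% ± 0.199, 0.583% ± 0.0602 and 0.701% ± 0.156 in the same groups.

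**Figure D1:**
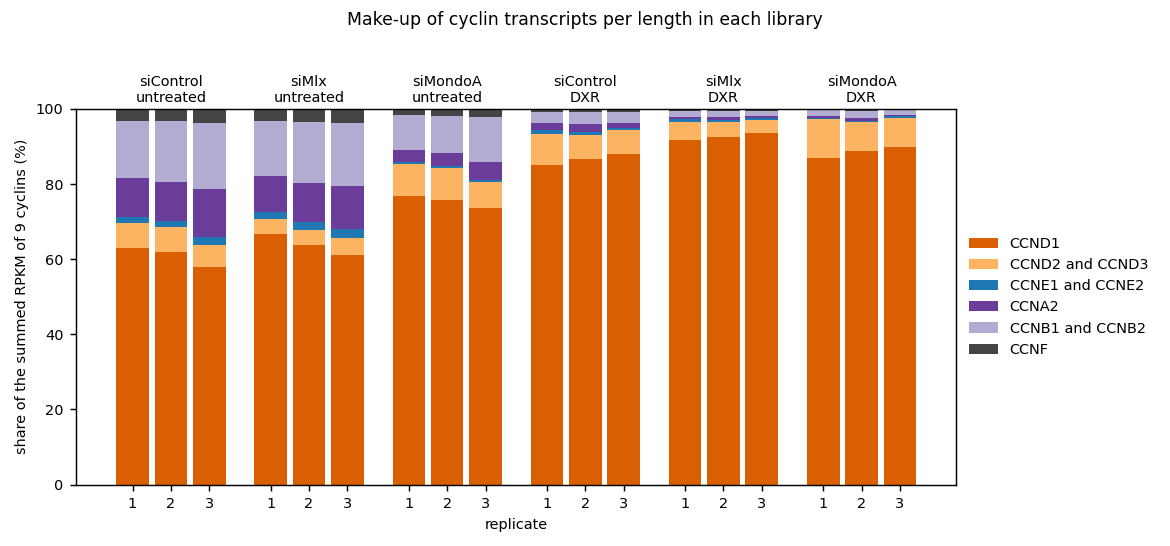
Share of the summed RPKM of the 9 cyclins (vertical axis, percent) in each of the 18 libraries (horizontal axis, replicate number within each group), with colours for the cyclin types. CCND1 and the other D-type genes fill 63.8% to 70.8% of the bars of untreated siControl and siMlx cells, 80.6% to 85.4% with siMondoA, and 93.1% or more after DXR.

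All 9 cyclins passed the filter on low counts, CCND2 only through its DXR-treated groups. Counts and medians are therefore given over the other 8, which also passed it in the untreated libraries alone, and CCND2 is described on its own. In siControl cells DXR raised 2 of the 8, the D-type genes CCND1 and CCND3, a share near the 28.1% of all 13676 tested genes that rose. Another 5 fell, CCNE2, CCNA2, CCNB1, CCNB2 and CCNF, against 28.6% of all genes, and CCNE1 did not pass (quasi-likelihood test of edgeR, with p adjusted by Benjamini-Hochberg over all tested genes and called under 0.05, here and below). The median log2 fold change was -1.75 over the cyclins and -0.01 over all tested genes.

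With siMondoA in untreated cells 7 of 8 cyclins fell, against 23.3% of all genes that fell. CCND1 did not pass in the main fit. It did with the replicate number as a block, without the low-count filter, with the compared groups alone and without siMondoA replicate 3. The median was -1.17 over the cyclins and 0.02 over all genes. In DXR-treated cells siMondoA lowered 5, CCNE2, CCNA2, CCNB1, CCNB2 and CCNF, against 13.9% of all genes. The median was -1.11, against 0.01 over all genes, and the other 3 cyclins did not pass. Of these, CCND1 did with the block, without the low-count filter or without siMondoA replicate 3. CCNE1 passed with a filter of 1 CPM, and without siControl replicate 1 or siMondoA replicate 2.

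With siMlx in untreated cells 1 cyclin rose (CCNE1, against 24.9% of all genes) and 1 fell (CCND3, against 23% of all genes), a share below that of all genes in each direction. In DXR-treated cells siMlx raised CCND1, against 14% of all genes, and lowered CCND3, CCNE2, CCNA2, CCNB1 and CCNB2, against 16.2%. CCNE1 and CCNF did not pass. With the replicate number as a block over all 18 libraries, including those of groups not called paired, CCNF also fell (-0.39, adjusted p = 0.02). It likewise passed without the low-count filter (0.000299) and with the compared groups alone (0.0104). Over the cyclins the median was 0.17 before and -0.65 after DXR, against 0.02 and 0.01 over all genes. The 2 siRNA comparisons of each condition share their siControl libraries. The sum of the epithelial markers, mostly KRT8 and KRT18, moved with siMlx and, after DXR, with siMondoA. Its part in these results was not tested.

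**Figure D2:**
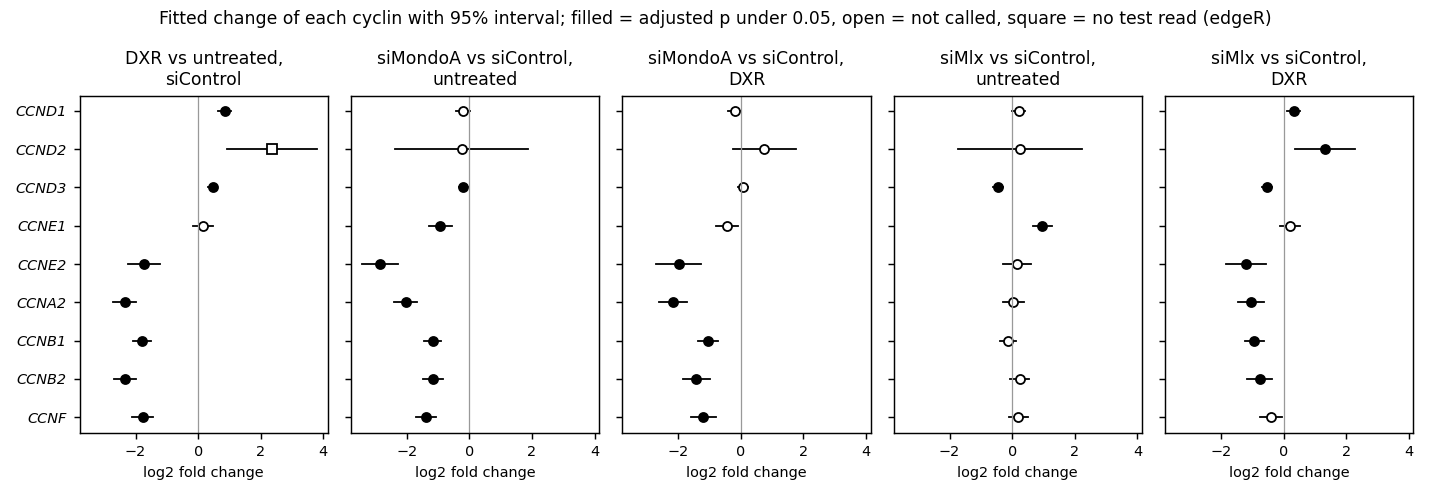
Fitted log2 fold change of each cyclin (horizontal axis) with its 95% interval in 5 comparisons. Filled circles mark an adjusted p under 0.05, and an open square marks CCND2 with DXR, where no test is read. No test is read either for CCND2 with siMlx in DXR-treated cells, drawn as a filled circle. DXR moved CCND1 and CCND3 up and CCNE2, CCNA2, CCNB1, CCNB2 and CCNF down. The same 5 genes fell with siMondoA in both conditions, and 4 of them with siMlx in DXR-treated cells. CCNF passed there in alternative fits: with the replicate block (adjusted p = 0.02), without the low-count filter (0.000299) and with the compared groups alone (0.0104).

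Cyclin D1, the product of CCND1 (chromosome 11, 69641087 to 69654474, GRCh38), is the D-type cyclin whose level follows growth signals most closely. Its untreated siControl libraries read 1328, 1284 and 1341 CPM, the siMlx libraries 1564, 1511 and 1497, and the siMondoA libraries 1113, 1050.0 and 1266. After DXR they read 2111, 2340.1 and 2643 CPM with siControl, 2670.4, 2919.8 and 3323 with siMlx, and 1748, 2022 and 2405 with siMondoA. Each DXR library was above every untreated one. DXR raised CCND1 by log2 0.84 (SE 0.10, adjusted p = 9.09e-07) with siControl, 0.96 (SE 0.10) with siMlx and 0.85 (SE 0.10) with siMondoA. The siRNA effects were small. With siMondoA the difference from siControl was -0.21 (95% interval -0.42 to 0.01, adjusted p = 0.106) untreated and -0.20 (-0.41 to 0.01, adjusted p = 0.165) after DXR, although the untreated libraries did not overlap. With the replicate number as a block over all 18 libraries, including those of groups not called paired, the adjusted p became 0.0229 and 0.0445. Without the low-count filter it was 0.00154 and 0.00988, and with the compared groups alone 0.0322 untreated. It was also under 0.05 without siMondoA replicate 3 of either condition, at 0.041 untreated and 0.0239 after DXR. With siMlx the difference was 0.21 (adjusted p = 0.0975) untreated and 0.33 (SE 0.10, adjusted p = 0.0184) after DXR. The untreated one passed without the filter (0.00645) and with the compared groups alone (0.0161). The difference after DXR did not pass without siControl replicate 1, 2 or siMlx replicate 3 of the DXR groups, at adjusted p values of 0.103, 0.0601 and 0.114.

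Cyclin D3, encoded by CCND3 (chromosome 6, 41934933 to 42050357), can replace the other D-type cyclins with CDK4 and CDK6. It was the most even of the set in untreated siControl cells, at 96.2, 97.0 and 94.97 CPM. The untreated siMlx libraries read 66.4, 70.0 and 74.5 and the siMondoA libraries 86.9, 82.2 and 82.9 CPM. After DXR the values were 143, 121 and 132 CPM with siControl, 100.1, 90.5 and 84.9 with siMlx, and 143, 123 and 148 with siMondoA. All siMlx libraries were below all siControl libraries of their condition. CCND3 fell with siMlx by log2 -0.45 (SE 0.08, adjusted p = 5.55e-05) untreated and by -0.53 (SE 0.07, adjusted p = 1.91e-05) after DXR, and rose with DXR by 0.46 (SE 0.07, adjusted p = 2.6e-05) in siControl cells. The untreated siMondoA difference of -0.19 (SE 0.07, adjusted p = 0.039) missed the threshold with upper-quartile scaling, at 0.0946, and with scaling by library totals, at 0.0605. It also missed it without any 1 of 5 libraries (siControl replicate 1, 2 or 3, siMondoA replicate 2 or 3), at 0.0634 to 0.112. After DXR, CCND3 with siMondoA stood at 0.06 (adjusted p = 0.579).

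CCND2 (chromosome 12, 4273772 to 4305350), which encodes cyclin D2, was close to the detection limit. The untreated libraries held 7, 0 and 1 counts with siControl, 1, 0 and 6 with siMlx, and 2, 2 and 1 with siMondoA. After DXR they held 9, 13 and 11 with siControl, 31, 27 and 19 with siMlx, and 17, 25 and 10 with siMondoA. DXR libraries were above untreated ones throughout. Since the filter kept CCND2 only through the DXR groups, the differences with DXR are a description with no test. They were log2 2.35 (SE 0.68) with siControl, 3.35 (SE 0.70) with siMondoA and 3.43 (SE 0.61) with siMlx. These sizes rest on single libraries: without untreated siControl replicate 1 the siControl value was 4.34, and without untreated siMlx replicate 3 the siMlx value was 5.41. The increase with siMlx over siControl after DXR (1.32, SE 0.45, adjusted p = 0.0325) did not pass in 5 of the 6 fits that left out 1 of its libraries, with adjusted p values up to 0.121. In the annotation CCND1 shares exonic bases with LTO1 on the other strand, CCND2 with CCND2-AS1 and CCND3 with AL513008.1. Whether the counting used strand is not given, so reads of these pairs may be mixed. CCND2 also shares exonic bases with AC008012.1 on the same strand, where strand cannot separate reads.

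**Figure D3:**
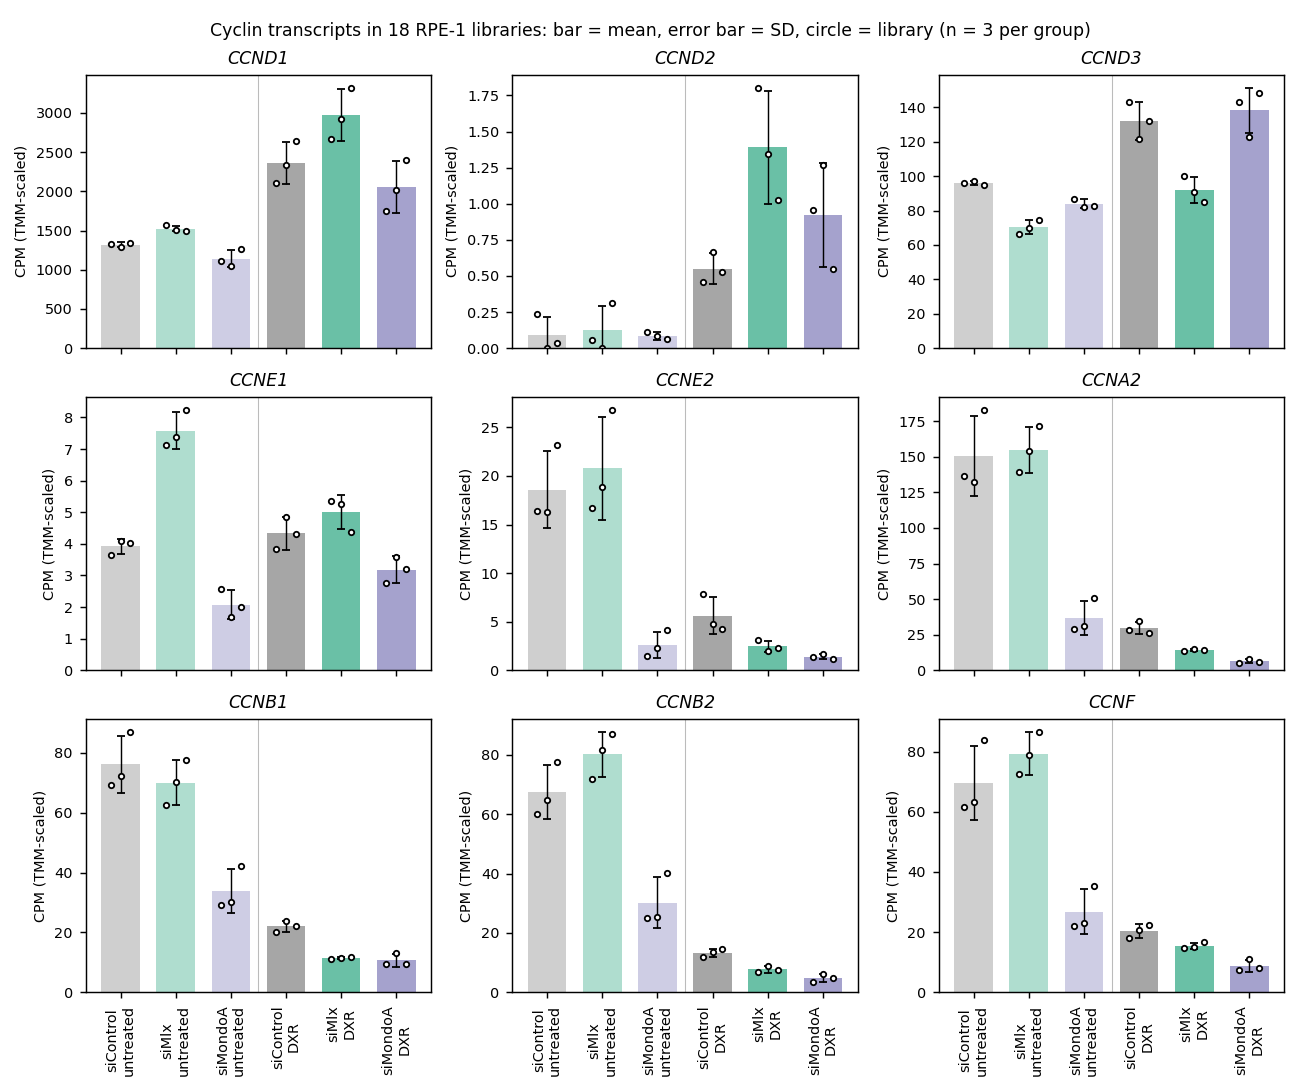
TMM-scaled CPM (vertical axis, linear and starting at 0) of each cyclin in the 6 groups (horizontal axis), with circles for libraries, bars for the mean and error bars for the SD of 3. CCND1 runs from 1050.0 to 3323 CPM and rises with DXR in each siRNA group, while CCNA2 falls from 132 to 183 CPM in untreated siControl libraries to 5.45 to 8.26 in DXR-treated siMondoA libraries.

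The E-type genes parted from each other. Cyclin E1 and cyclin E2 both activate CDK2 at the start of S phase. CCNE2, on chromosome 8 (94879770 to 94896678), read 16.4, 16.2 and 23.2 CPM in untreated siControl libraries, 16.7, 18.8 and 26.8 with siMlx, and 1.503, 2.27 and 4.11 with siMondoA. No siMondoA library came near a control library. It fell by log2 -2.85 with siMondoA (SE 0.27, adjusted p = 6.04e-08), 7.22-fold lower and the largest change of any cyclin in that comparison. After DXR it read 7.85, 4.76 and 4.27 CPM with siControl, 3.08, 1.99 and 2.32 with siMlx, and 1.35, 1.67 and 1.21 with siMondoA. Both siRNA groups lay wholly below siControl. The siMondoA difference after DXR was -1.98 (SE 0.34, adjusted p = 0.000248) and the siMlx difference -1.20 (SE 0.31, adjusted p = 0.00631). The latter missed the threshold without DXR-treated siControl replicate 1, the library at 7.85 CPM, with log2 -0.88 and an adjusted p of 0.0527. DXR lowered CCNE2 by -1.73 (SE 0.24) with siControl and by -3.09 (SE 0.28) with siMlx. With siMondoA the DXR difference was -0.86 (SE 0.39, adjusted p = 0.0705). It passed in DESeq2 (0.0398), with scaling by library totals (0.0401), without the low-count filter (0.000208) and without untreated siMondoA replicate 1 (0.0233). CCNE2 shares exonic bases with INTS8 and AC087752.4 on the other strand.

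CCNE1 (chromosome 19, 29811898 to 29824308) was lower than CCNE2 per length in untreated control cells and moved otherwise. Its libraries read 3.64, 4.07 and 4.04 CPM with siControl, 7.13, 7.37 and 8.24 with siMlx, and 2.56, 1.68 and 1.99 with siMondoA in untreated cells, 3 ranges with no overlap. It rose with siMlx by log2 0.95 (SE 0.15, adjusted p = 1.98e-05) and fell with siMondoA by -0.93 (SE 0.17, adjusted p = 0.000152). The siRNAs against MLX and MondoA thus had opposite directions here, and the direct comparison of siMondoA with siMlx gave -1.88 (SE 0.16, adjusted p = 6.72e-09). After DXR, CCNE1 read 3.82, 4.86 and 4.32 CPM with siControl, 5.35, 5.28 and 4.37 with siMlx, and 2.75, 3.60 and 3.19 with siMondoA. Differences from siControl were 0.21 (adjusted p = 0.336) with siMlx and -0.44 (SE 0.16, adjusted p = 0.0516) with siMondoA. The latter passed with a filter of 1 CPM (0.0476), and without DXR-treated siControl replicate 1 (0.0403) or siMondoA replicate 2 (0.0413). DXR left CCNE1 at 0.15 (95% interval -0.17 to 0.47, adjusted p = 0.427) with siControl, raised it by 0.63 (SE 0.18, adjusted p = 0.00573) with siMondoA and lowered it by -0.60 (SE 0.15, adjusted p = 0.00141) with siMlx.

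The ratio of CCNE1 to CCNE2 in RPKM was 0.296, 0.333 and 0.232 in untreated siControl libraries, 0.566, 0.520 and 0.409 with siMlx, and 2.26, 0.984 and 0.645 with siMondoA. After DXR it was 0.647, 1.36 and 1.34 with siControl, 2.31, 3.52 and 2.503 with siMlx, and 2.71, 2.86 and 3.50 with siMondoA. CCNE2 was the more abundant in each untreated siControl and siMlx library, and CCNE1 in each DXR-treated library with siMlx or siMondoA. The groups did not overlap in 8 of 9 comparisons of this ratio. An exact two-sided permutation test gave p = 0.1 for each of these 8, the smallest that 3 libraries against 3 allow (0.129 after Benjamini-Hochberg adjustment over 27 ratio tests).

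**Figure D4:**
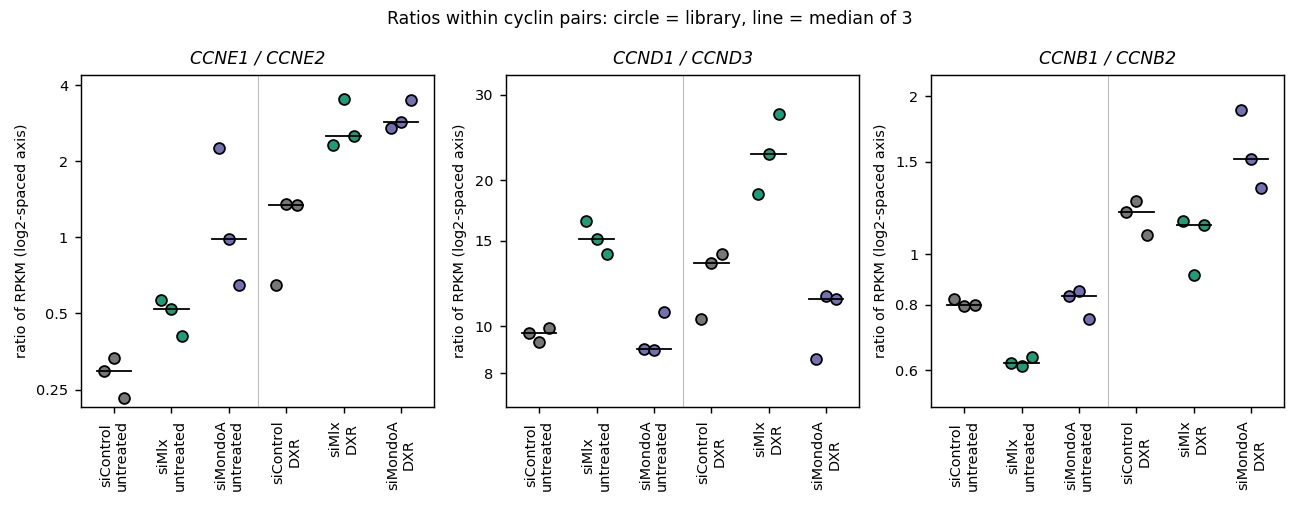
Ratios of RPKM within 3 pairs of cyclins (vertical axes, log2-spaced) in the 6 groups (horizontal axis), with a circle for each library and a line at the median of 3. CCNE1 / CCNE2 runs from 0.232 to 0.333 in untreated siControl cells and from 2.71 to 3.50 in DXR-treated siMondoA cells, CCND1 / CCND3 is higher with siMlx than with siControl in both conditions, and CCNB1 / CCNB2 is higher after DXR with each siRNA.

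CCND1 and CCND3 also changed in ratio, from 9.67, 9.28 and 9.90 in untreated siControl libraries to 16.5, 15.1 and 14.1 with siMlx, and from 10.3, 13.5 and 14.1 to 18.7, 22.6 and 27.4 after DXR. These ranges did not overlap. With siMondoA the ratio was 8.97, 8.95 and 10.7 untreated and overlapped that of siControl. CCNB1 to CCNB2 stood at 0.822, 0.796 and 0.799 in untreated siControl libraries and at 1.20, 1.26 and 1.09 after DXR. It was 0.620, 0.613 and 0.638 with siMlx untreated, below every control library.

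CCNA2, CCNB1, CCNB2 and CCNF moved together. Over the 18 libraries the Pearson correlation of log2 CPM between any 2 of the 4 was 0.971 to 0.992, which describes libraries that share their groups, and CCNE2 reached 0.861 to 0.934 with them. CCNE1 reached 0.249 to 0.421 with the same 4 and 0.563 with CCNE2. In each of the 3 untreated groups the library with replicate number 3 was the highest for all of CCNA2, CCNB1, CCNB2, CCNE2 and CCNF.

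For these genes short stretches of promoter sequence are shown, because genes that move together in the cell cycle are known to carry a cell cycle homology region (TTTGAA or TTTAAA), bound by MuvB proteins, below CCAAT boxes, bound by NF-Y. RefSeq promoters (GRCh38.p14, 300 bases, of which 250 lie before the start site) were found for 6 of the 9 cyclins, in 8 windows. Each window of 30 bases is printed 5′ to 3′ on the strand of the gene, with the motif in capitals.
CCNB1 homology region, plus strand, chr5:69167108-69167137: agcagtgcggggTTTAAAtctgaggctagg
CCNB2 homology region, plus strand, chr15:59105105-59105134: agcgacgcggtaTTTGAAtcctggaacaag
CCNF homology region, plus strand, chr16:2429350-2429379: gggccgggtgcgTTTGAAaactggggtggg
CCNE1 homology region, plus strand, chr19:29811951-29811980: gcgcgcagggatTTTAAAtgtcccgctctg
CCNB1 CCAAT box, plus strand, chr5:69167083-69167112: gccacgaacaggCCAATaaggagggagcag
CCNB2 CCAAT box, plus strand, chr15:59105080-59105109: gcgcagggccgcCCAATggggcgcaagcga
CCNF CCAAT box, plus strand, chr16:2429329-2429358: cccccgggcaggCCAATgggagggccgggt
CCNA2 CCAAT box read in reverse, minus strand, chr4:121823922-121823951: gcgagcgctttcATTGGtccatttcaatag

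Both strands were searched. The homology region began 30 bases before the start site in CCNB1, 29 in CCNB2, 28 in CCNE1 and 85 in CCNF, and CCNB2 held another at 193. Its letters were not in the CCNA2 window or in the 3 windows of CCND3. Only TTTGAA and TTTAAA were searched, so a variant of the region with other letters would have been missed. The region was found in 24% of all 35116 promoters of this length. CCAAT boxes began 55 and 87 bases before the start in CCNB1, 54, 87, 120 and 244 in CCNB2, 106, 210, 239 and 250 in CCNF, and 56 in CCNA2, the last on the other strand. CCND3, which is not among the genes that moved together, held 1 in each of 2 of its 3 windows, at 136 and, on the other strand, at 64. CCNE1 held none, and 34.6% of all promoters held at least 1. None of the 8 windows held an E2F site (TTTCCCGC, TTTGGCGC, TTTCGCGC or TTTGCCGC, 3.31% of all promoters). The carbohydrate response element bound by MondoA and MLX (0.501% of all promoters) was in none either, and an E-box (CACGTG, 7.26%, whose letters can overlap with that element) was in that of CCNB1 only. A match is a run of letters and not a measured binding site.

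Cyclin A2, the S-phase and G2 partner of CDK2 and CDK1, is encoded by CCNA2 on chromosome 4 (121816444 to 121823933), where EXOSC9 shares exonic bases on the other strand. Its untreated libraries read 137, 132 and 183 CPM with siControl, 139, 154 and 172 with siMlx, and 28.9, 31.0 and 50.5 with siMondoA. After DXR they read 28.2, 34.7 and 26.1 CPM with siControl, 13.8, 15.03 and 14.4 with siMlx, and 5.45, 8.26 and 5.95 with siMondoA. Untreated siMondoA libraries overlapped in level with DXR-treated siControl libraries, and the 3 DXR groups did not overlap with each other. CCNA2 fell with siMondoA by log2 -2.04 (SE 0.17, adjusted p = 7.48e-09), 4.12-fold, and after DXR by -2.17 (SE 0.21, adjusted p = 3.17e-07). With siMlx it was at 0.04 (95% interval -0.29 to 0.37, adjusted p = 0.857) untreated and fell by -1.04 (SE 0.19, adjusted p = 0.000352) after DXR. DXR lowered it by -2.35 (SE 0.17) with siControl, -2.47 (SE 0.21) with siMondoA and -3.42 (SE 0.19) with siMlx.

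Cyclin B1, which brings CDK1 into the nucleus at the entry into mitosis, is encoded by CCNB1 (chromosome 5, 69167010 to 69178245). Its libraries read 69.3, 72.2 and 86.9 CPM with siControl, 62.4, 70.1 and 77.5 with siMlx, and 29.2, 30.2 and 42.1 with siMondoA before DXR. After DXR they read 20.02, 23.8 and 22.3, then 11.2, 11.5 and 11.9, then 9.49, 13.3 and 9.36 CPM in the same order of siRNAs. The siMlx and siMondoA groups overlapped after DXR, and both lay below siControl. The siMondoA difference was -1.18 (SE 0.13, adjusted p = 3.23e-07) untreated and -1.03 (SE 0.15, adjusted p = 4.39e-05) after DXR. With siMlx it was -0.12 (adjusted p = 0.444) and -0.93 (SE 0.15, adjusted p = 9.04e-05).

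CCNB2 (chromosome 15, 59105078 to 59125045) encodes cyclin B2, found mostly at the Golgi apparatus. It read 60.2, 64.8 and 77.7 CPM with siControl, 71.9, 81.6 and 86.8 with siMlx, and 25.04, 25.3 and 40.1 with siMondoA in untreated cells. After DXR it read 11.9, 13.5 and 14.7, then 6.92, 9.06 and 7.45, then 3.59, 6.23 and 5.01 CPM. The 3 DXR groups did not overlap. The DXR decrease with siControl was -2.34 (SE 0.16, adjusted p = 8.57e-10), against -1.79 (SE 0.13, adjusted p = 1.58e-09) for CCNB1. CCNB2 fell with siMondoA by -1.17 (SE 0.15, adjusted p = 3.03e-06) untreated and -1.42 (SE 0.21, adjusted p = 4.38e-05) after DXR, and with siMlx by -0.77 (SE 0.19, adjusted p = 0.00528) after DXR. In untreated siMlx cells it was at 0.25 (adjusted p = 0.172).

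CCNF (chromosome 16, 2429394 to 2458854) encodes cyclin F, which marks RRM2, CDC6 and other proteins for degradation. Its libraries read 61.7, 63.3 and 83.8 CPM with siControl, 72.5, 78.9 and 86.6 with siMlx, and 22.2, 23.0 and 35.4 with siMondoA in untreated cells. After DXR they read 17.9, 20.8 and 22.4, then 14.8, 15.1 and 16.6, then 7.30, 11.2 and 8.15 CPM. Again the DXR groups did not overlap. It fell with siMondoA by -1.38 (SE 0.15, adjusted p = 4.2e-07) untreated and by -1.19 (SE 0.18, adjusted p = 7.44e-05) after DXR. With siMlx after DXR it was at -0.39 (SE 0.17, adjusted p = 0.0942). The adjusted p was 0.02 with the replicate block, 0.000299 without the low-count filter and 0.0104 with the compared groups alone. In untreated siMlx cells CCNF was at 0.19 (adjusted p = 0.301). In the annotation CCNF shares exonic bases with AC106820.5 and AC106820.6 on the other strand.

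Whether an siRNA effect differed between untreated and DXR-treated cells was tested as an interaction. For siMlx 5 of 8 cyclins passed, each with a lower siMlx effect after DXR, against 5.81% of all genes with a lower effect. They were CCNE2 (-1.36, SE 0.38, adjusted p = 0.0242), CCNA2 (-1.08, SE 0.25, adjusted p = 0.00702), CCNB2 (-1.01, SE 0.24, adjusted p = 0.00954), CCNB1 (-0.81, SE 0.19, adjusted p = 0.00979) and CCNE1 (-0.75, SE 0.21, adjusted p = 0.0246). For CCNE1 the siMlx increase of untreated cells shrank after DXR to a difference that was not past the test. For CCNE2, CCNA2, CCNB2 and CCNB1 the siMlx difference was 0.16, 0.04, 0.25 and -0.12 in untreated cells, none past the test, and each fell with siMlx after DXR. CCNF stood at -0.58 (adjusted p = 0.1). It passed without the low-count filter (0.000112), with the compared groups alone (0.0303) and without untreated siControl replicate 3 (0.0288). With the replicate block it passed too (0.0162), although untreated and DXR-treated libraries were not called paired. Leaving out untreated siControl replicate 1, untreated siMlx replicate 3 or DXR-treated siMlx replicate 3 left 3 of the 5 past the test, since CCNE1 and CCNE2 then had adjusted p values of 0.0562 to 0.0637. Leaving out untreated siControl replicate 2, DXR-treated siControl replicate 1 or DXR-treated siMlx replicate 2 lost CCNE2, with adjusted p values of 0.055, 0.0908 and 0.0773, and leaving out DXR-treated siControl replicate 2 lost CCNE1, at 0.0714.

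For siMondoA 0 of 8 interactions passed in edgeR, against 10.1% of all genes in either direction. At an unadjusted p under 0.05 there was 1, CCND3 (0.26, SE 0.10, adjusted p = 0.13), and in DESeq2 0. The 95% intervals were -0.70 to 0.45 for CCNA2, -0.28 to 0.56 for CCNB1, -0.79 to 0.30 for CCNB2, -0.31 to 0.70 for CCNF and -0.12 to 1.86 for CCNE2.

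Compared directly in untreated cells, siMondoA gave lower levels than siMlx for 7 cyclins, against 30.4% of all genes, and a higher level for CCND3 (0.26, SE 0.08, adjusted p = 0.00674), against 28.5%. CCNE2 (-3.01, SE 0.28, adjusted p = 1.41e-08) and CCNA2 (-2.08, SE 0.17, adjusted p = 2.53e-09) differed most. After DXR 5 were lower with siMondoA, against 20% of all genes, and CCND3 was again higher (0.59, SE 0.07, adjusted p = 2.84e-06), against 18.9%. CCNB1 no longer differed past the test (-0.10, 95% interval -0.45 to 0.24). CCNE2 did not either (-0.78, adjusted p = 0.128), but passed without the low-count filter (0.00178) and with the compared groups alone (0.0321). CCNB2 (-0.66, adjusted p = 0.0267) missed it without DXR-treated siMlx replicate 2 or siMondoA replicate 1 or 3, at 0.116, 0.13 and 0.0582. In the other DXR comparisons, 6 cyclins fell and 2 rose with siMlx (31.2% and 30.9% of all genes), and 4 fell and 3 rose with siMondoA (28% and 26.2%), CCND2 not counted.

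Among partners and activators of the cyclins (12 CDKs, CDC25 phosphatases, CKS proteins and parts of the CDK-activating kinase, all tested), 9 fell and 1 rose with siMondoA in untreated cells (median -0.88, against 0.02 over all genes), against 23.3% of all genes in each direction. CDK2, the partner of cyclins E and A, went down by log2 -1.81 (SE 0.10, adjusted p = 2.74e-11), from 42.5 to 12.1 CPM, and the phosphatase gene CDC25A went from 50.3 to 12.7. CDK7 of the activating kinase rose from 21.1 to 38.2. In siMlx cells 3 rose and 3 fell (median -0.07), about the shares of all genes (24.9% and 23%), led by CDK6, the partner of D-type cyclins, which fell from 202 to 91.5 CPM (-1.14, SE 0.06, adjusted p = 4.33e-12). DXR lowered 9 and raised 2 with siControl (median -0.94, against 28.6% and 28.1% of all genes), with CDC25B from 146 to 32.2 CPM. After DXR 7 fell and 1 rose with siMondoA (median -0.37, against 13.9% and 10.9% of all genes), and the same numbers with siMlx (median -0.47, against 16.2% and 14%).

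WEE1 and PKMYT1, the kinases that hold CDK1 inactive, both fell under siMondoA before DXR (WEE1 from 49.4 to 11.1 CPM, log2 -2.17, and PKMYT1 from 29.2 to 6.82, -2.12) and after DXR. Of all genes 23.3% fell with siMondoA before and 13.9% after DXR. Both also fell with DXR in siControl cells (-1.01 and -1.67), against 28.6% of all genes. With siMlx WEE1 rose in untreated cells (0.52, adjusted p = 0.000527), against 24.9% of all genes. PKMYT1 fell with siMlx after DXR (-0.81, adjusted p = 0.0223), against 16.2%. Of 6 tested CDK inhibitors, 4 rose and 2 fell with siMondoA in untreated cells (median 0.41), 3 rose with siMlx (median 0.18), and 3 rose and 3 fell with DXR (median 0.01). Of all genes 23.3% rose and 23.3% fell with siMondoA, 24.9% rose with siMlx, and 28.1% rose and 28.6% fell with DXR. CDKN1A, the gene of p21, read 228 CPM in untreated siControl cells, 501 with siMondoA and 553 with siMlx. With DXR it rose to 2312 CPM in siControl cells (log2 3.34, SE 0.08, adjusted p = 6.33e-16). CDKN2C, an inhibitor of CDK4 and CDK6, fell with DXR from 70.7 to 13.1 CPM and with siMondoA from 70.7 to 29.7.

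In the RB and E2F family (13 genes, all tested), 8 fell and 2 rose with siMondoA in untreated cells (median -0.69, against 23.3% of all genes in each direction). RBL1, the gene of p107, fell from 30.2 to 5.72 CPM and E2F1 from 29.9 to 5.68, both by log2 -2.42. With siMlx 4 rose and 2 fell (median -0.06, against 24.9% and 23% of all genes): E2F3 rose from 43.8 to 66.5 CPM and E2F5 from 1.94 to 6.70, while RBL1 fell to 11.8. DXR lowered 10 and raised 2 (median -0.46, against 28.6% and 28.1%). After DXR 6 fell with siMondoA (median -0.24, against 13.9%), and 3 rose and 3 fell with siMlx (median -0.02, against 14% and 16.2%).

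MYBL2, FOXM1 and MuvB proteins drive mitotic cyclins, and MuvB proteins are also part of the DREAM complex that represses them. Of these genes (7, all tested), 6 fell with siMondoA in untreated cells (median -1.05, against 23.3% of all genes) and 6 with DXR (median -0.79, against 28.6%). FOXM1 read 395 CPM in untreated siControl cells, 191 with siMondoA and 57.8 with siControl after DXR. With siMlx 1 of 7 fell in untreated cells (RBBP4, median -0.03), fewer than the 23% of all genes, and 2 after DXR (median -0.25, against 16.2%): FOXM1 from 57.8 to 29.1 CPM and MYBL2 from 25.9 to 12.8. After DXR siMondoA lowered 4 (median -0.48, against 13.9%), with FOXM1 at 18.4 CPM.

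Of 14 parts and inhibitors of ubiquitin ligases that act on cyclins, 9 fell with siMondoA in untreated cells (median -0.29, against 23.3% of all genes) and 8 with DXR, which also raised 1 (median -0.35, against 28.6% and 28.1%). CDC20, an activator of the ligase that degrades cyclins A and B, fell with siMondoA from 131 to 46.3 CPM and with DXR to 28.4. Of 7 genes whose products cyclin F marks for degradation, 6 fell with siMondoA in untreated cells (median -1.35, against 23.3% of all genes) and 5 with DXR (median -1.56, against 28.6%). RRM2, a subunit of ribonucleotide reductase, fell from 310.5 to 67.8 CPM with siMondoA and to 84.2 with DXR. In untreated siMlx cells 2 rose and 2 fell (median -0.06, near the 24.9% and 23% of all genes), and after DXR siMlx lowered 4 (median -0.70, against 16.2%). E2F1 is a member of this last list and of the RB and E2F family, and FZR1 of both lists of ligase parts and of cyclin F substrates.

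Cyclins outside the cell cycle set serve transcription and other tasks. CCNH, of the CDK-activating kinase, is in this list and also among the partners and activators above. Of 15 tested of 16 listed, 5 rose and 4 fell with siMondoA in untreated cells (median 0.06, against 23.3% of all genes in each direction). With DXR 5 rose and 2 fell (median 0.08, against 28.1% and 28.6%). CCNG1 and CCNG2, known targets of p53 and FOXO factors, rose with DXR from 153 to 283 and from 16.8 to 31.5 CPM. With siMlx 5 rose and 3 fell in untreated cells (median 0.13, against 24.9% and 23%). CCNY, a cyclin of the cell membrane, fell with siMlx by log2 -2.02 (SE 0.06, adjusted p = 1.29e-15), from 174 to 43.0 CPM, and after DXR from 191 to 83.9, and CCNJ rose from 14.6 to 38.6.

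For each cyclin the gene whose log2 CPM followed it most closely over the 18 libraries was looked up among genes with a mean of at least 5 CPM. These correlations rest on libraries that share groups and are given as a description. They were GTSE1 for CCNA2 (r = 0.996), AURKA for CCNB1 (0.997), AURKB for CCNB2 (0.996), CKAP2L for CCNF (0.994) and E2F1 for CCNE2 (0.990). AURKA and AURKB encode Aurora kinases of mitosis. The genes nearest to the other cyclins were FADS3 for CCND1 (0.973), SNX6 for CCND3 (0.980), CBX1 for CCNE1 (0.958) and ASAH1 for CCND2 (0.954, with CCND2 at few counts).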

How the data were processed

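The deposited tables hold raw read counts, and RPKM values that the authors made from them (reads scaled by gene length and library size), for 18 libraries of poly(A)-selected RNA, made with a stranded kit per the labels' protocols. Per the submitters' processing notes, bcl2fastq and TopHat2 2.1.1 were used with GRCh38. Which program, annotation and strand setting served for counting is not given in the sources used here. Each deposited RPKM value matched its count with 1 length per gene for all 24846 genes with a count.

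From the counts, edgeR 4.0.16 (R 4.3.3) kept 13676 genes with filterByExpr by group, scaled libraries with TMM and fitted 1 mean per group to all 18 libraries (12 residual degrees of freedom). Contrasts were tested with its two-sided quasi-likelihood test, Benjamini-Hochberg adjusted over all tested genes at a threshold of 0.05. The fit was tested on simulated counts. SE stands for the standard error of a fitted log2 change. Levels between genes were compared in RPKM, and correlations used log2 CPM with a prior count of 2. Replicates differed by more than counting error (chi-square per degree of freedom 3.75 to 16.4). Intervals cover the spread between libraries only.

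The cyclins and all gene lists were chosen with earlier results of these data known. The rule for naming genes took the 9 cyclins, MLXIP, MLX, up to 3 genes with the smallest p of each pathway list in a comparison, and the genes most correlated with each cyclin. Positions come from GENCODE 29 on GRCh38, and 30-base promoter windows from RefSeq (GRCh38.p14), with no entry used for CCND1, CCND2 and CCNE2.

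Replicate numbers come from the labels. Same-numbered libraries were called paired where each correlation of their deviations from the group means was over 0.1. This held for siMondoA and siControl in untreated cells (0.115, 0.101 and 0.330) and for all pairs of siRNA groups after DXR (0.167 to 0.277), and not for siMlx and siControl in untreated cells (lowest 0.0515) or between untreated and DXR-treated groups. Alternatives were upper-quartile, RLE and library-total scaling, no filter, a filter of 1 CPM, a replicate block, fits of the compared groups alone, DESeq2 1.42.0 and leaving out each library. The block was fitted over all 18 libraries, whether or not their groups were called paired.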

Additional observations from a re-analysis of the deposited data

Results flagged for a closer look

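The effect of siMlx differed between untreated and DXR-treated cells for 5 cyclins, by an interaction contrast in the edgeR fit of all 18 libraries. The difference of log2 fold changes was -1.36 for CCNE2 (adjusted p = 0.0242), -1.08 for CCNA2 (adjusted p = 0.00702), -1.01 for CCNB2 (adjusted p = 0.00954), -0.81 for CCNB1 (adjusted p = 0.00979) and -0.75 for CCNE1 (adjusted p = 0.0246). Untreated and DXR-treated cells also differ in the library tags D0 and D5, so harvest day and drug cannot be told apart.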

How the results depend on the processing

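In no alternative did a cyclin past the test change sign, and upper-quartile, RLE and library-total scaling, the 1 CPM filter, DESeq2 and fits of the compared groups alone left all 11 counts of called cyclins, here with CCND2 among them, within 1.5 times. Library totals moved the median of all genes under DXR by log2 -0.10 with siControl and by -0.13 with siMlx and siMondoA. For siMlx in untreated cells 4 cyclins were called, in place of 2, without the low-count filter and with the replicate block. The block brought CCNB2 to an adjusted p of 0.0444 and CCND1 to 0.0215. Untreated siMlx and siControl libraries were not called paired, although their correlations were all positive (0.195, 0.0515 and 0.245). CCND1 was also called there with the compared groups alone (0.0161), a fit with no block. The block also brought the siMlx interaction of CCNF to 0.0162. It changed no other call besides those given with the results, and 14 of 18 libraries correlated best with their own number. Without the filter 1 siMondoA interaction was called (CCNE2, 0.0105). Leaving out each library in turn gave 3 to 6 called cyclins for the siMlx interaction, 4 to 6 for siMlx after DXR (4 without DXR-treated siControl replicate 1), 0 to 1 for the siMondoA interaction (1 without DXR-treated siMondoA replicate 2), and 918 to 1384 genes for the siMondoA interaction, the lowest without untreated siMondoA replicate 1. Reversals touched only values not past the test. The siMondoA interaction of CCND1 was -0.0316 with upper-quartile scaling and -0.0178 with library totals, and leaving out libraries gave -0.12 to 0.11 for it. The same range was -0.34 to 0.16 for CCNA2, -0.0482 to 0.32 for CCNB1, -0.46 to 0.0012 for CCNB2, -0.0163 to 0.43 for CCNF and -0.997 to 1.41 for CCND2. For CCND2 it was -0.66 to 1.75 with siMondoA, -1.73 to 2.24 with siMlx and -1.09 to 1.49 for siMondoA against siMlx in untreated cells, and -0.92 to 3.05 for the siMlx interaction. With siMlx in untreated cells it was -0.0456 to 0.20 for CCNA2 and -0.0674 to 0.35 for CCNE2. The cause of these shifts was not tested. Depth limits CCND2, with at most 77 counts in a group.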
